A study of Mus musculus with 21 samples.

Results

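Atf3 encodes activating transcription factor 3, a DNA-binding protein of the ATF/CREB family with a basic leucine zipper (bZIP). It was 1 of 757 probes in the deposited table of this panel, found by its symbol in the probe table, and it was 1 of the 740 probes that passed the filter on low values. The gene lies on chr1:191170296-191183333 of the GRCm38.p6 mouse genome, on the minus strand, and NM_007498.3 is its RefSeq transcript.

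ATF3 is low in most resting cells and is induced by many kinds of stress and injury. It pairs with itself or with other bZIP proteins such as JUN, and it can repress or activate its target genes. In the nervous system it is best known as a marker of neurons whose axons have been cut, and in mouse macrophages it restrains cytokine genes that are switched on through Toll-like receptors.

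RNA came from right hemispheres of the brains of male C57BL6J mice after controlled cortical impact, an open-skull model of traumatic brain injury (TBI) in which a piston strikes the cortex of that side. Levels were read with the NanoString nCounter Mouse Neuroinflammation panel, which counts hybridized molecules of each transcript without amplification. The 21 samples formed 7 groups of 3 mice, namely sham, TBI with PBS as vehicle on days 3, 7, and 28, and TBI with CR2-Crry on the same days. CR2-Crry joins a part of complement receptor 2, which binds C3 fragments on injured tissue, to the mouse complement inhibitor Crry.

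Sham mice had anesthesia and a scalp incision but no bone opening, and they were listed with the PBS vehicle. There was 1 sham mouse of 12, 1 of 13, and 1 of 16 weeks. The injured mice were 12 weeks old in the day 3 groups, 13 weeks in the day 7 groups, and 16 weeks in the day 28 groups, so that age and day after injury cannot be told apart among them. CR2-Crry was given at 16 mg/kg into a vein 1 h after injury, and the day 28 groups had 3 further doses into the abdomen, so that day and dosing cannot be told apart either.

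The stretch before the Atf3 start site is shown because it holds letters of elements described for genes induced by stress. Whether they are the sites described for Atf3 itself was not tested. It is the 250 bases at chr1:191183334-191183583 (GRCm38.p6, minus strand, from RefSeq), printed 5′ to 3′ and ending at the base before the annotated start. Capitals mark letters of the C/EBP-ATF response element (CARE, TTGCATCA, at −110 to −103 from the start) and of a variant of the cAMP response element (CRE, TTACGTCA, at −10 to −3).
Atf3 upstream: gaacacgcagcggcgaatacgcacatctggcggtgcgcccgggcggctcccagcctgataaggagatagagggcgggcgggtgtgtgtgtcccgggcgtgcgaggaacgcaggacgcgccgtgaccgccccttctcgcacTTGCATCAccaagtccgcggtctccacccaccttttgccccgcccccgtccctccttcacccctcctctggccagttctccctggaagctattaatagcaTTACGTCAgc
Both strands were searched in windows from 250 bases before to 50 after each start. The CARE letters stood in 0.895% of 32851 such windows and the CRE variant in 0.499%. The CRE core TGACG, read on the other strand, overlapped the CRE variant here and stood in 20.8% of windows. The full CRE TGACGTCA (1.79% of windows) and the AP-1 letters TGAGTCA or TGACTCA (5.20%) had no match in the Atf3 window. A match is a description of letters and not a measured binding site.

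Sham hemispheres held little Atf3 transcript. The 3 sham samples read 29.9 (12 weeks), 33.2 (13 weeks), and 50.2 (16 weeks) normalized counts, a mean of 37.8 ± 10.9 (SD, n = 3). These values were 38, 38, and 60 times the smallest step of each sample's scale. If 1 step is 1 counted molecule, which was not tested, their exact Poisson 95% intervals run from 26.9 to 52.2 for the first pair and from 45.8 to 77.2 for the oldest mouse, and cover counting error only.

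On day 3 Atf3 was far above sham in every injured mouse. PBS TBI samples read 397, 386, and 447 normalized counts, a mean of 410 ± 32.3 (SD, n = 3). CR2-Crry TBI samples read 432, 414, and 370, a mean of 405 ± 31.6. The PBS and CR2-Crry samples were interleaved, and the lowest of them exceeded the highest sham sample several times over.

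By day 7 the level was lower under both treatments. PBS TBI samples read 322, 281, and 320 normalized counts (307 ± 23.0, SD, n = 3). CR2-Crry TBI samples read 222, 253, and 285 (254 ± 31.6). The highest CR2-Crry sample lay above the lowest PBS sample, and each group lay below all day 3 samples.

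On day 28 Atf3 was still above sham. PBS TBI samples read 83.2, 135, and 113 normalized counts (110 ± 26.0, SD, n = 3). CR2-Crry TBI samples read 178, 71.8, and 131 (127 ± 53.3), the widest spread of any group, with a coefficient of variation of 42.0% against 23.5% in PBS TBI of that day and 28.9% in sham. The CR2-Crry samples ran from below the lowest to above the highest PBS sample, and no injured sample was as low as the highest sham.

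**Figure D1:**
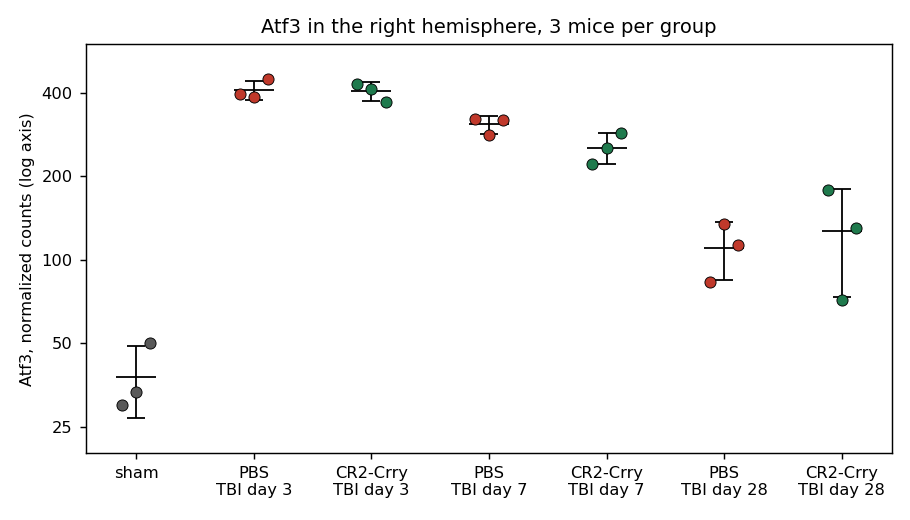
Atf3 in each of the 21 samples (points, normalized counts on a log axis), with the mean and SD of each group of 3 mice as horizontal line and error bars. Sham samples lie between 29.9 and 50.2, day 3 samples between 370 and 447, day 7 samples between 222 and 322, and day 28 samples between 71.8 and 178.

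In order of mean level the groups were PBS day 3, CR2-Crry day 3, PBS day 7, CR2-Crry day 7, CR2-Crry day 28, PBS day 28, and sham. Of 15 pairs of groups compared, 12 did not overlap in any sample, and the 3 that did were PBS and CR2-Crry of the same day. Neighbors in this order that did not differ beyond their spread were the treatment pairs of each day. CR2-Crry day 3 and PBS day 7, neighbors that differ in treatment and day, did not overlap and were not tested. Taking the excess over sham on day 3 as the whole, PBS TBI held 72.4% of it on day 7 and 19.5% on day 28, and CR2-Crry TBI held 58.8% and 24.2%.

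The first comparison asked how Atf3 in PBS TBI differed from sham. It was 11.1-fold higher on day 3 (log2 change 3.48, 95% interval 2.95 to 4.0, limma adjusted p = 4.17e-10), 8.34-fold higher on day 7 (3.06, 2.54 to 3.58, adjusted p = 1.94e-09), and 2.94-fold higher on day 28 (1.56, 1.04 to 2.08, adjusted p = 3.35e-05). The calls around it were common, since 64.9% of the 740 tested probes were called on day 3, 66.8% on day 7, and 52.6% on day 28 at an adjusted p under 0.05. Against that background the size of the Atf3 change stood out more than its call, at rank 10 of 740 from the highest on day 3, rank 25 on day 7, and rank 41 on day 28. In bulk tissue, more cells of a type that expresses a gene and more RNA per cell cannot be told apart.

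Under CR2-Crry the changes against the same 3 sham mice were of like size. Atf3 was 10.99-fold higher on day 3 (log2 change 3.46, 2.94 to 3.98, limma adjusted p = 4.53e-10), 6.86-fold on day 7 (2.78, 2.26 to 3.30, adjusted p = 1.13e-08), and 3.22-fold on day 28 (1.69, 1.17 to 2.21, adjusted p = 1.26e-05). The probes called were 64.9%, 58.2%, and 54.6% of those tested, and Atf3 ranked 12, 23, and 39 from the highest. With the test in the study's methods, without moderation, the day 28 change missed the threshold (adjusted p = 0.0743).

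Exact permutation tests (two-sided) of the single gene reached p = 0.1 in each pair of 3 against 3 whose samples did not overlap, the smallest p that design allows. Over all 9 PBS TBI samples against 3 sham the log2 difference was 2.70 (exact permutation p = 0.009091), and over all 9 CR2-Crry samples it was 2.64 (exact p = 0.009091), both the smallest possible. Set against the 1 sham mouse of the same age, the PBS TBI means were 13.7-fold higher on day 3, 9.25-fold on day 7, and 2.20-fold on day 28, and the CR2-Crry means 13.6-fold, 7.64-fold, and 2.52-fold. The lowest single day 28 samples were 1.66-fold (PBS) and 1.43-fold (CR2-Crry) above the 16-week sham mouse. That mouse had the highest Atf3 of the sham group, and with 1 mouse per age these ratios carry no test.

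The scaling of samples sets part of these values. The median change of all tested probes against sham in PBS TBI was 0.30 on day 3, 0.36 on day 7, and 0.21 on day 28 (log2). Centring each sample on its median probe moved every change by −0.60, −0.73, and −0.34 on those days. Atf3 then stood at 2.87, 2.33, and 1.22, still called on each day, while the probes called became 78.8%, 80.4%, and 59.2% of those tested. The split of calls turned with it, from 382 higher and 98 lower on day 3 to 196 higher and 387 lower. Centring takes the median probe as unchanged, which a panel built from neuroinflammation genes need not meet. Which scaling is nearer to RNA levels was not tested. A gene called lower only on centred samples was therefore not shown to have less RNA.

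**Figure D2:**
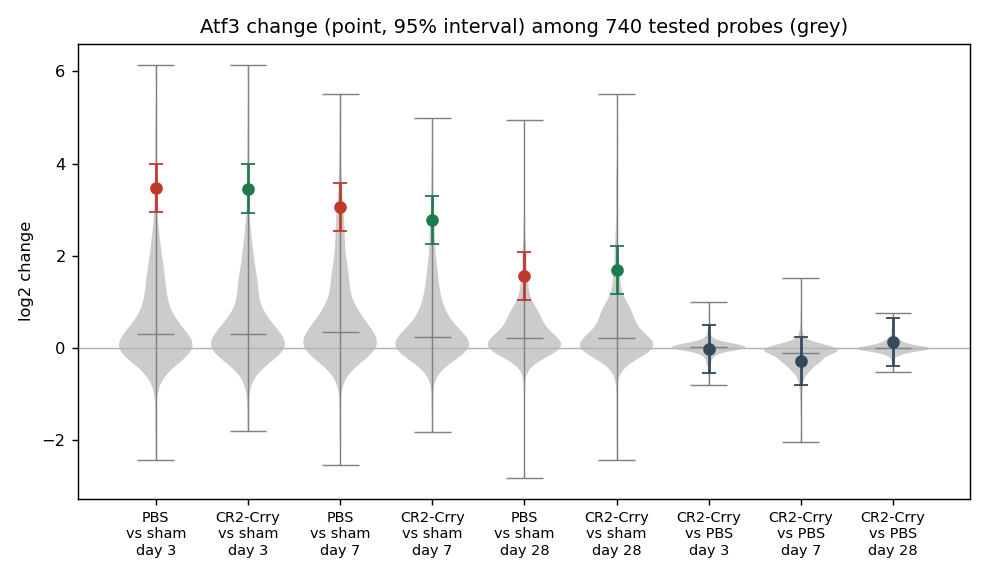
Log2 change of Atf3 (points, with 95% intervals from limma) in 9 comparisons, over the distribution of all 740 tested probes (grey shapes, with lines at the lowest, median, and highest probe). Atf3 lies in the upper tail in all 6 comparisons with sham and its interval spans 0 in all 3 comparisons of CR2-Crry with PBS.

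The second comparison asked whether complement inhibition changed Atf3 in the injured hemisphere, and no difference was detected on any day. CR2-Crry minus PBS was −0.02 on day 3 (log2, 95% interval −0.54 to 0.50, limma adjusted p = 0.999), −0.28 on day 7 (−0.80 to 0.24, adjusted p = 0.461), and 0.13 on day 28 (−0.39 to 0.65, adjusted p = 0.999). Averaged over the days it was −0.06 (−0.36 to 0.25, adjusted p = 0.913). Exact permutation tests gave p = 0.9, 0.2, and 0.9 for the days and p = 0.709 for labels permuted within days. These intervals leave room for a day 7 level under CR2-Crry between 0.573 and 1.18 times that under PBS.

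For the panel as a whole, 0% of probes were called on day 3 (27 had an unadjusted p under 0.05), 7.43% on day 7 (2 higher and 53 lower), 0% on day 28 (15 under 0.05), and 0% in the average (65 under 0.05). The 55 calls of day 7 became 8, 1, or 86 without PBS mouse 1, 2, or 3 of that day, and 4, 0, or 6 without CR2-Crry mouse 1, 2, or 3. The effect of CR2-Crry on Atf3 was not shown to differ between days, at −0.26 for day 7 minus day 3 (−1.0 to 0.47, limma adjusted p = 0.706) and 0.41 for day 28 minus day 7 (−0.32 to 1.15, adjusted p = 0.545). In those 2 comparisons 0% of probes were called, with 124 and 144 at an unadjusted p under 0.05, and limma voom likewise called 0 wherever 0% was called.

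The third comparison followed Atf3 between days. From day 7 to day 28 it fell 2.83-fold in PBS TBI (log2 change −1.50, limma adjusted p = 6.81e-05, 45.1% of probes called) and 2.13-fold in CR2-Crry TBI (−1.09, adjusted p = 0.00307, 25% called). From day 3 to day 28 it fell 3.78-fold in PBS TBI (−1.92, adjusted p = 5.55e-06, 44.9% called) and 3.41-fold in CR2-Crry TBI (−1.77, adjusted p = 1.52e-05, 43.6% called). Counted from the lowest, these changes ranked between 10 and 19 of 740. With the test in the study's methods the PBS fall from day 3 stayed called, and the other 3 did not (adjusted p = 0.0555, 0.293, and 0.131).

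The step from day 3 to day 7 was smaller and did not pass the threshold in the fit over all groups. It was −0.42 in PBS TBI (95% interval −0.94 to 0.10, limma adjusted p = 0.227, 25.1% of probes called) and −0.68 in CR2-Crry TBI (−1.20 to −0.16, adjusted p = 0.0620, 19.1% called). Fits on those groups alone did call it (adjusted p = 0.0148 and 0.00129). The shared spread of Atf3 within groups, an SD of 0.34 on the log2 scale, was larger than that of 90.95% of probes (median 0.14), with the sham and day 28 groups the most spread.

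Atf3 changed apart from the other bZIP genes of the panel. Of 32 listed bZIP genes besides Atf3, 6 were measured. In PBS TBI on day 3 the list had 2 higher, 3 lower, and 1 not called, on day 7 it had 2, 2, and 2, and on day 28 it had 1, 2, and 3. On centred samples these counts were 1, 4, and 1 on day 3, 1, 5, and 0 on day 7, and 1, 4, and 1 on day 28. Its median log2 change was 0.01, −0.05, and −0.08, against medians of 0.30, 0.36, and 0.21 over all tested probes, and in CR2-Crry against PBS none of the 6 was called on any day. Beside the counts in PBS TBI, 51.6%, 57.3%, and 44.5% of all tested probes were called higher and 13.2%, 9.46%, and 8.11% lower. On centred samples these shares were 26.5%, 25.9%, and 21.2% higher and 52.3%, 54.5%, and 38% lower.

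Jun, the usual partner of ATF3 in injured neurons, read 1059, 937, and 969 normalized counts in sham and 1277, 1223, and 1402 in PBS TBI on day 3. Those groups did not overlap, but the change was small (log2 0.40, SE 0.07, limma adjusted p = 7.17e-05) and turned to −0.21, called lower, once samples were centred on their medians. On day 28 the change of Jun was −0.10 (adjusted p = 0.273), or −0.44 and called lower on centred samples, and that of Atf3 was 1.56, or 1.22 on centred samples.

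Nfe2l2, which encodes the oxidative stress factor NRF2, was the bZIP gene whose signed change was nearest to that of Atf3. It read 84.9, 92.7, and 81.2 in sham and 182, 175, and 150 in PBS TBI on day 3, with no overlap. Its log2 changes were 0.97, 1.19, and 0.58 on the 3 days (limma adjusted p = 2e-08, 8.1e-10, and 2.79e-05), and they stayed above 0 and called when samples were centred.

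Fos, a partner of JUN in AP-1 and a marker of recent neuronal activity, went the other way. It read 1105, 1108, and 1441 in sham and 384, 380, and 419 in PBS TBI on day 3 (log2 change −1.62, limma adjusted p = 5.97e-06). It was lower still on day 28 (−2.38, adjusted p = 1.32e-07), the day on which Atf3 was nearest to sham.

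The other bZIP genes had smaller changes. Crem, a modulator of cAMP-responsive transcription, was lower on day 3 (log2 change −0.37, limma adjusted p = 0.00381). The CRE-binding factor Creb1 stood at −0.17 on that day and was called lower. Maff, a small MAF protein, stood at 0.20 (adjusted p = 0.480), or −0.41 on centred samples and not called in either, and its sham samples (47.2, 38.5, and 83.7) spanned all 3 PBS samples of day 3 (49.4, 72.3, and 63.8).

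The immediate early genes, switched on within minutes by neuronal activity or stress, had 4 of 14 listed members on the panel. In PBS TBI 1 was higher and 3 lower on days 3 and 7, and on day 28 none was higher and 3 were lower. Among all tested probes 13.2%, 9.46%, and 8.11% were called lower on those days, or 52.3%, 54.5%, and 38% on centred samples. The synaptic gene Arc (log2 −2.43 on day 3) and the zinc finger factor Egr1 (−1.70) fell together with Fos, and Jun was the 1 higher, with the reversal on centring given above, so that all 4 were lower on each day on centred samples. Atf3 is often grouped with these genes, and its change was opposite to that of 3 of the 4, or of all 4 on centred samples.

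Because a ratio of 2 genes within a sample does not depend on how that sample was scaled, Atf3 was also set against each of these 8 genes. The log2 ratio of Atf3 to the other gene rose from sham to the 9 PBS TBI samples by 5.29 for Arc, 4.58 for Fos, 4.45 for Egr1, 3.13 for Crem, 2.77 for Creb1, 2.66 for Maff, 2.51 for Jun, and 1.78 for Nfe2l2. In all 8 the ratio of every PBS TBI sample exceeded that of every sham sample (two-sided exact permutation p = 0.009091, the smallest possible, and the same after adjustment over the 8). For Nfe2l2, the closest, the ratio ran from −1.51 to −0.69 in sham and from −0.60 to 1.58 in PBS TBI.

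**Figure D3:**
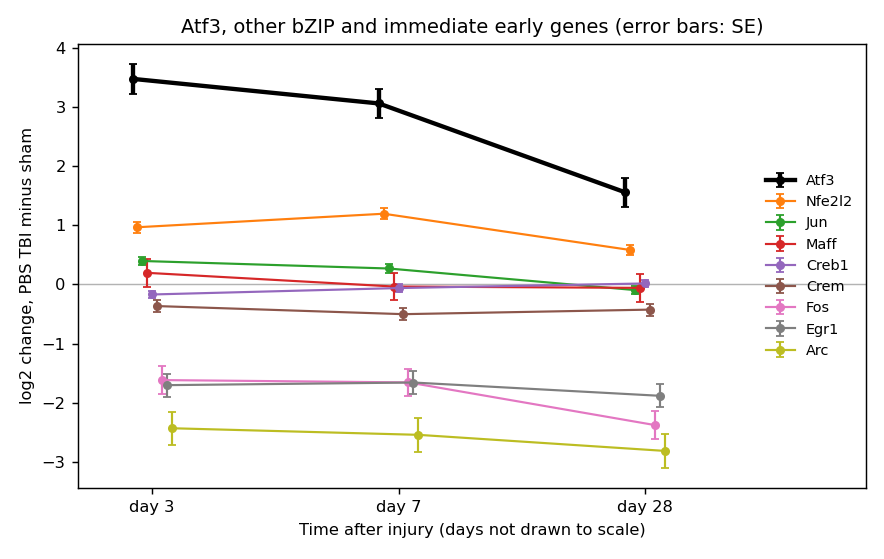
Log2 change of Atf3, 6 other bZIP genes, and the immediate early genes Egr1 and Arc in PBS TBI against sham on days 3, 7, and 28 (points, with SE from limma, offset sideways for legibility). Atf3 goes from 3.48 to 1.56, Nfe2l2 lies between 0.58 and 1.19, and Fos, Egr1, and Arc lie below −1.5 on each day.

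The stress response and p53 list holds genes of heme, oxidative, unfolded protein, and DNA damage responses, several of them known alongside ATF3 induction. Of 26 listed, 14 were measured. In PBS TBI 10 were higher and none lower on day 3, 12 and none on day 7, and 5 and 1 on day 28, with medians of 0.36, 0.44, and 0.12. These medians are near those of all tested probes, and on centred samples the counts became 1 higher and 7 lower on day 3, 1 and 8 on day 7, and 2 and 8 on day 28. For comparison, 51.6%, 57.3%, and 44.5% of all tested probes were called higher, and on centred samples 52.3%, 54.5%, and 38% were called lower.

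Hmox1, the heme-degrading enzyme, kept its direction under centring and was the 1 member whose change exceeded that of Atf3 on day 3. It read 81.8, 79.5, and 79.5 in sham and 2304, 2615, and 2862 in PBS TBI (log2 change 5.01, limma adjusted p = 3.32e-14), with a fall to 2.93 on day 7 and 0.91 on day 28. Hmox1 was called lower under CR2-Crry than under PBS on day 7 (−0.74, adjusted p = 0.0218), one of the calls lost without CR2-Crry mouse 2, while Atf3 was not, and that difference between the genes was not tested. The small heat shock gene Hspb1 was 0.70 higher on day 3, or 0.10 and not called on centred samples. The cell cycle inhibitor Cdkn1a, a p53 target, stood at −0.11 and the p53 target Sesn1 at −0.09, neither called on the authors' scaling and both called lower on centred samples.

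Transcripts of a list of stress and related signaling kinases, not all of them known to act upstream of ATF3 and JUN, went both ways. Of 21 listed, 7 were measured, with 1 higher, 2 lower, and 4 not called in PBS TBI on day 3, 2, 2, and 3 on day 7, and 0, 1, and 6 on day 28. Over the whole panel 51.6%, 57.3%, and 44.5% of tested probes were called higher and 13.2%, 9.46%, and 8.11% lower. The neuronal JNK gene Mapk10 was lower on day 3 (log2 −0.55, limma adjusted p = 8.95e-10). Map3k1, a kinase above JNK, stood at 0.24 and was called, but at −0.37 on centred samples. There all 7 were called lower on day 3, 6 on day 7, and 4 on day 28, and none higher. Centring also left 52.3%, 54.5%, and 38% of all tested probes called lower on those days. Map3k14 (0.16) and Mapk12 (−0.38) were not called.

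Of 17 listed genes of nerve injury and regeneration, in which Atf3 is usually counted, 6 were measured. In PBS TBI 4 were higher, 1 lower, and 1 not called on days 3 and 7, and 1, 1, and 4 on day 28, beside 51.6%, 57.3%, and 44.5% of all tested probes called higher on those days. On centred samples the counts were 2, 2, and 2 on day 3 and 1, 4, and 1 on days 7 and 28. Of all tested probes 13.2%, 9.46%, and 8.11% were called lower on days 3, 7, and 28. On centred samples 52.3%, 54.5%, and 38% were called lower and 26.5%, 25.9%, and 21.2% higher. Tnfrsf12a, the receptor for TWEAK, read 252, 242, and 249 in sham and 680, 707, and 773 in PBS TBI on day 3 (log2 1.54, limma adjusted p = 2.85e-10), and it stood at 0.73 on day 7 and −0.18 on day 28, the latter not called. On centred samples Tnfrsf12a was not called on day 7 (0.0039) and was called lower on day 28 (−0.52), while Atf3 was called higher on both days. The cytokine gene Csf1 was 1.30 higher on day 3 and 0.94 on day 28. The neurotrophin gene Bdnf fell by 1.39 on day 3, and the neurotrophin receptor gene Ngfr stood at 0.36, or −0.25 on centred samples, and was not called in either.

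Genes described as held down by ATF3 in mouse macrophages were mostly higher at the same time as Atf3. Those measured were cytokine genes and an enzyme gene. Of 13 listed, 6 were measured, and 5 were higher and none lower in PBS TBI on days 3 and 7, and 4 and none on day 28. Their medians of 1.64, 1.91, and 1.04 were above those of all probes, and on centred samples 4, 3, and 4 were called higher. The shares of all tested probes called higher were 51.6%, 57.3%, and 44.5%, or 26.5%, 25.9%, and 21.2% on centred samples. Whether the list exceeded these shares was not tested. Ccl2, a monocyte attractant, was 4.62 higher on day 3 (log2) and 2.22 on day 28, and the interferon-induced chemokine Cxcl10 was 2.43 higher on day 3 and 4.29 on day 7, while Atf3 was highest on day 3. Both Ccl2 and Cxcl10 read near the filter value of 20 in sham, with means of 23.1 and 23.0 normalized counts.

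Il1b was 1.18 higher on day 3 on the log2 scale, or 0.58 and not called on centred samples. It read 29.87, 25.35, and 19.25 normalized counts in sham, near the filter value of 20. In PBS TBI on day 3 it read 69.95, 85.27, and 28.26, so that these groups overlapped. Tnf stood at 0.30 on day 3 and was not called, but was called on day 7 at 0.64 and on day 28 at 1.00 (limma adjusted p = 0.0365 and 0.00343). On centred samples it stood at −0.09 and was not called on day 7, and at 0.66 and was called on day 28. Its levels were low too, at 13.99 to 24.28 normalized counts in sham. In PBS TBI they were 27.64 to 32.68 on day 7 and 37.53 to 40.28 on day 28. In CR2-Crry against PBS none of the 6 was called on any day.

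Among probes with a symbol, the genes whose levels followed Atf3 most closely over the 21 samples were, by Pearson's r of log2 values, Tnfrsf1a (0.98), Msn (0.98), Cotl1 (0.97), Lgmn (0.97), Olfml3 (0.97), Pros1 (0.97), Fcrls (0.97), Ifi30 (0.97), Vim (0.96), and Ncf1 (0.96). Tnfrsf1a encodes a TNF receptor, Msn and Cotl1 encode proteins that bind actin, Lgmn a lysosomal protease, Ifi30 a lysosomal thiol reductase, and Ncf1 a subunit of the phagocyte NADPH oxidase. Fcrls and Olfml3 are microglial genes in mice, Vim is an intermediate filament gene of reactive astrocytes and other cells, and Pros1 encodes protein S. High correlations were common, because all samples share the contrast of injured and sham. Of 739 probes 93 had r above 0.9, 13 had r below −0.9, and the median was 0.52. A pair of probes without a symbol, 2 in all, stood above the tenth named gene.

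None of the 10 changed as much as Atf3 on day 3 except Vim (log2 3.85), and the next were Ifi30 (3.00) and Fcrls (2.46). On day 7 CR2-Crry against PBS ran from −0.83 for Ifi30 and −0.58 for Vim to −0.22 for Pros1, against −0.28 (SE 0.25) for Atf3. All of the 10 except Pros1 were called lower on that day, beside 7.16% of all tested probes. These calls were among those that depended on single mice, as given above. Centring the samples moved every change in this comparison by 0.17, and the calls of these genes on centred samples are not given. Cotl1 (−0.28) and Lgmn (−0.26) had changes near that of Atf3 and were called with an SE of 0.06 each. The lowest correlations were with the neuronal genes Mapk10 (−0.96), Pacsin1 (−0.95), and Rab6b (−0.95), whose changes on day 3 were between −0.47 and −0.55. Of the 10, 9 had a promoter window in the RefSeq table, and none of those held the full CRE, the CRE variant, the CARE, or the AP-1 letters; Ifi30 alone held TGACG.

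**Figure D4:**
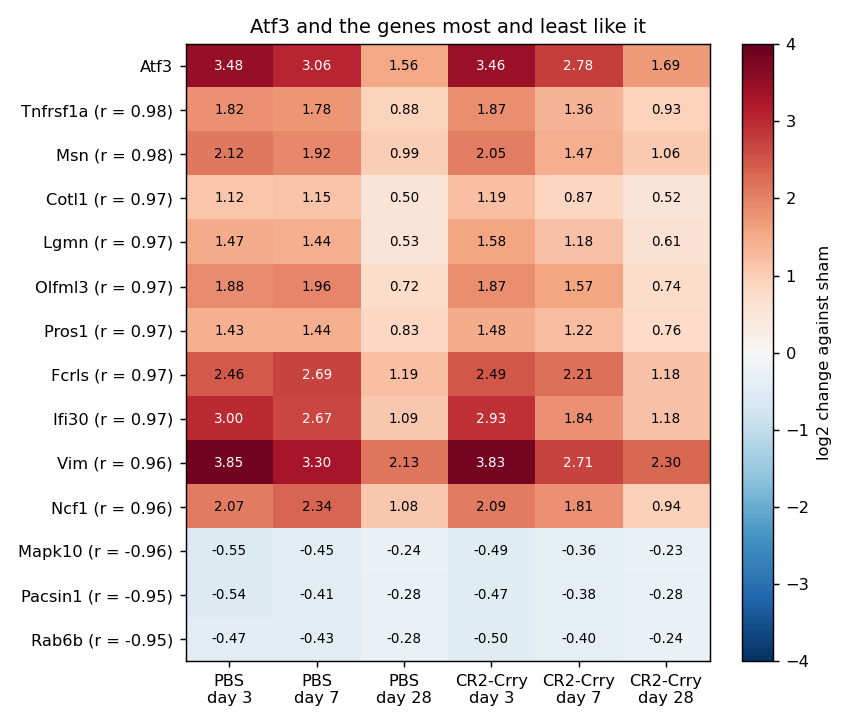
Log2 change against sham (color and printed value) of Atf3, of the 10 named genes with the highest Pearson's r with it over 21 samples, and of the 3 with the lowest. Atf3 goes from 3.48 to 1.56 over the days in PBS TBI and from 3.46 to 1.69 in CR2-Crry TBI, Vim is the 1 gene with a higher value on day 3, and the 3 genes at the bottom are below 0 throughout.

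A different set came up when each group's mean was taken away, so that only mouse-to-mouse deviations remained. This measure was chosen after the values were seen, and all probes of a sample share its scaling. Atf3 deviations then followed most closely those of C1qa (r = 0.89), C1qc (0.87), and C1qb (0.86), followed by the survival gene Bcl2a1a (0.84) and the integrin gene Itgb5 (0.83). The C1q genes encode the chains of complement C1q, made by microglia and macrophages. From in situ signal for C1qa, the study proposes that neurons also contribute to C1q after injury. The 10 genes above reached 0.53 to 0.67.

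In CR2-Crry TBI on day 28, where Atf3 read 178, 71.8, and 131, C1qa read 4465, 3033, and 3939 in the same mice. In PBS TBI of that day Atf3 read 83.2, 135, and 113, and C1qa read 3240, 4234, and 3509. In sham C1qa read 936, 860, and 1260, highest in the mouse that was highest in Atf3. The sign of the deviation was shared in 17 of 21 samples, and r was 0.85 without the 2 samples farthest from their Atf3 group mean, 0.83 without day 28, and 0.89 without sham. Because C1qa was picked for the highest r among named genes in these same samples, these values are a description and no test of a link. The median of all probes was ordered like Atf3 in both day 28 groups and in sham. It was 339, 294, and 320 in CR2-Crry TBI on day 28, 297, 329, and 306 in PBS TBI of that day, and 242.1, 243.0, and 257 in sham. On day 3 under both treatments and in PBS TBI on day 7 the order differed. Within-group r on centred samples was not computed.

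**Figure D5:**
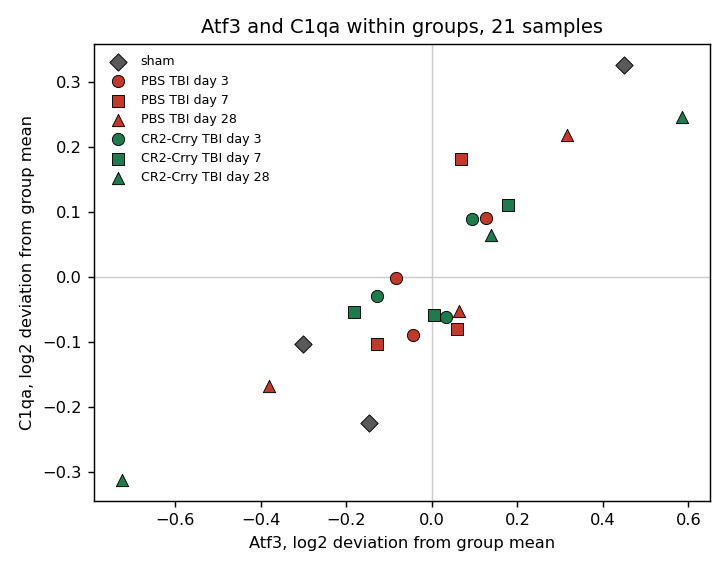
Deviation of each sample from its group mean for Atf3 (horizontal, log2) and C1qa (vertical, log2), 21 samples marked by group. Most samples lie along the rising diagonal (r = 0.89), with CR2-Crry TBI day 28 samples at both ends.

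Cell type markers changed after injury in differing ways, and their part in the change of Atf3 was not tested. The neuronal markers Rbfox3 (2941 to 4200 normalized counts) and Slc17a7 (5772 to 8173), the oligodendrocyte marker Mog, the astrocyte marker Aldh1l1, and the microglial marker P2ry12 were present in all 21 samples. The summed level of the 7 of 10 microglial markers measured ran from 3606 to 3766 in sham and, in PBS TBI, from 9685 to 10559 on day 3, 10553 to 12931 on day 7, and 6212 to 6848 on day 28. Under CR2-Crry it ran from 9260 to 10554, 9363 to 10145, and 5615 to 6653. This sum peaked on day 7 in PBS TBI, whereas Atf3 was highest on day 3.

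The 4 of 10 monocyte and macrophage markers measured summed to 142 to 269 in sham. In PBS TBI they summed to 785 to 951 on day 3, 629 to 693 on day 7, and 303 to 381 on day 28, and under CR2-Crry to 690 to 924, 363 to 464, and 300 to 378. They were highest on day 3 like Atf3, and the sham mouse with the highest Atf3 had the highest sum, 269 against 153 and 142. The only measured neutrophil marker of 8, Csf3r, ran from 64.7 to 93.8 in sham and, in PBS TBI, from 237 to 285 on day 3, 322 to 399 on day 7, and 204 to 239 on day 28. Unlike Atf3, it was higher on day 7 than on day 3.

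The 7 of 10 astrocyte markers, Vim among them, summed to 16824 to 17632 in sham, 33060 to 33960 in PBS TBI on day 3, 32401 to 37203 on day 7, and 24563 to 27000 on day 28, with the highest median on day 7. The 9 of 13 neuronal markers went from 39124 to 40009 in sham down to 30252 to 32458 in PBS TBI on day 3. Oligodendrocyte markers (5 of 11) ran from 9848 to 12658 in sham and 13957 to 17737 on day 3, and endothelial markers (5 of 9) from 2237 to 2425 and 3281 to 3471. T and NK cell markers (10 of 13) summed to only 139 to 152 in sham and 122 to 129 on day 3, with 8 of the 10 under 20 in all PBS samples of day 3. No marker was at 0 in any sample.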

How the data were processed

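The authors extracted RNA from perfused right hemispheres, ran the panel, and in nSolver applied background thresholding and scaling to the geometric mean of 11 housekeeping genes. The deposited values are this normalized signal on a linear scale. All 21 sample columns were used and 0 were left out. In each sample at least 99.868% of values were whole multiples of 1 step (tolerance 0.0075), with totals of 750585 to 1023041 steps. A gene symbol was taken where the probe table gave 1, for 703 of 757 probes.

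Probes with a value over 20 in at least 3 of 21 samples were tested. Log2 values without pseudocount were fitted in limma 3.58.1 (R 4.3.3) with 1 mean per group, moderation with a mean-variance trend, and Benjamini-Hochberg adjustment over the 740 probes of each contrast. Calls needed an adjusted p under 0.05 and no minimum fold. The fit was tested on simulated data. Each mouse was a separate sample, and all contrasts against sham share the same 3 sham mice. Exact permutation tests, correlations, and motif searches used Python 3.11.15 with scipy 1.17.1, and figures used matplotlib 3.10.9.

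Atf3 and the gene lists, written from textbook knowledge, were chosen with earlier results of these data known. By the rule for named genes, all measured bZIP and immediate early genes, up to 4 genes of each other list (the 2 highest and 2 lowest changes on day 3), the 10 nearest genes, and the 3 farthest were named. Bcl2a1a, Itgb5, and the C1q genes were named after their values were seen. Alternatives were no trend, fits on the compared groups only, sample weights, the methods' t-test, adjustment only over unadjusted p under 0.05, log2 after adding 20, all probes unfiltered, only probes averaging at least 50, median centring, the replicate number as a block, each replicate left out, and other measures of likeness. Since the values did not pass a check for whole counts, no count test was run, and limma voom on values divided by their step took its place, a choice made once the values were known.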

Additional observations from a re-analysis of the deposited data

How the results depend on the processing

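Against sham, Atf3 kept its direction and its call in both treatments on every day under every alternative run, with 1 exception: under the methods' t-test CR2-Crry on day 28 was 1.69 with an adjusted p of 0.0743. The p-values of this t-test were adjusted over all tested probes, whereas between injured groups the study adjusted only over genes with p under 0.05. That test also left the falls from day 7 to day 28 (−1.50 in PBS, adjusted p = 0.0555, and −1.09 in CR2-Crry, 0.293) and from day 3 to day 28 in CR2-Crry (−1.77, 0.131) short of the threshold. It called 172 probes against 404 for CR2-Crry on day 28 against sham, 229 against 389 for PBS, and 0 against 55 for CR2-Crry against PBS on day 7. That last count ran from 0 to 211 over the alternatives, and from 0 (without CR2-Crry mouse 2) to 86 (without PBS mouse 3) with a replicate left out. Between days it called 1 to 131 probes where the fit called 141 to 334, and centring called 331 against 185 for CR2-Crry from day 7 to day 28. Where the fit called 0 probes, adjusting only over p under 0.05 called 15 to 144, and sample weights called 78 for the CR2-Crry effect on day 28 minus day 7. Leaving out a replicate gave 3.32 to 3.70, 2.91 to 3.28, and 1.40 to 1.78 for PBS on days 3, 7, and 28, and 3.31 to 3.68, 2.63 to 3.00, and 1.40 to 2.05 for CR2-Crry. The change from day 3 to day 7 in PBS was called in the fit on those groups alone (−0.42). In CR2-Crry it was called in that fit (−0.68), with sample weights (−0.73), with adjustment only over p under 0.05 (−0.68, adjusted p = 0.0189), with log2 of the value plus 20 (−0.64), and with limma voom (−0.68). CR2-Crry minus PBS changed sign near 0: on day 3 it was 0.035 with sample weights and −0.064 to 0.047 with a replicate left out, on day 28 it was −0.16 to 0.49, and averaged over days −0.15 to 0.065. It was not called in any of these. Of the 10 nearest genes, 2 remained with Spearman's rho, 5 with group means, and 6 in injured samples only. Same-numbered mice did not deviate together (median r of their deviations −0.02 to 0.02, and 5 of 21 samples closest to their own number), and the replicate block left the Atf3 change on day 28 in PBS at 1.56 (adjusted p = 5.97e-05) and moved calls for CR2-Crry against PBS on day 7 from 55 to 20. Sham values were 38 to 60 steps each. Whether a step is 1 counted molecule was not tested, so the counting precision of the fold changes against sham is not settled. The quasi-likelihood count test and rescaling to housekeeping genes were not run.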
